A study of Mus musculus with 12 samples.

Results

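Gapdh and 9 other genes for enzymes of glycolysis were followed across 12 RNA sequencing libraries of mouse prefrontal cortex. Members were chosen by name: Gapdh, Pgk1, Eno1, Eno2, Aldoa, Aldoc, Pkm, Tpi1, Ldha and Ldhb. These 10 names matched 11 of the 28842 gene rows of the deposited table, because Aldoa has a second, short row. All 11 rows had a mean FPKM (reads per kilobase of exon and per M reads, computed here) of at least 1, as did 13016 genes in all. Gapdh was picked out because its values in these libraries were already known to spread widely, so its values and its difference between groups are given as a description. Gapdh stays in the fits over all genes, and nothing is read from its own p there.

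The mice were male C57BL/6J, wild type, and received saline (6 libraries) or 15 mg/kg cocaine (6 libraries) from postnatal day 28 to 42. Both groups had a pre-test on day 75, 1 mg/kg cocaine before place preference training on days 76 and 77, and the test and tissue collection on day 78, so every library comes from an animal given cocaine as an adult. RNA of the dissected prefrontal cortex was made into libraries with a TruSeq kit. The labels do not say that each library is a separate mouse, so the spread between libraries may in part be technical. They also name a mesenchymal stem cell line, C3H 10T1/2, which the RNA does not match: the 9 neuron markers summed to between 143380 and 169889 normalised reads in every library, and the cortical neuron gene Tbr1 averaged 4003 ± 756 (saline) and 4139 ± 386 (cocaine; SD, n = 6 each). A time tag in the labels reads day 0 for the libraries numbered 1, 3 and 5 of each group and day 5 for the even numbers; what it refers to is not explained beside a tissue collection on day 78, and it was used only in a covariate fit. Depth was 16.7 to 19.9 M reads per library. A normalised read count is the library's read count for a gene divided by 1 scaling factor for that library.

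Glycolysis splits glucose into pyruvate in the cytosol and yields ATP and NADH. Aldolase cuts the phosphorylated sugar, triose phosphate isomerase interconverts the products, and glyceraldehyde-3-phosphate dehydrogenase (Gapdh) carries out the oxidation step that makes NADH. Phosphoglycerate kinase, enolase and pyruvate kinase follow, and lactate dehydrogenase turns pyruvate into lactate and back. In brain, neurons and astrocytes carry different isozymes of several of these steps. Gapdh is also one of the genes most often used to normalise quantitative PCR and blots.

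Gapdh is a gene whose processed mRNA has been copied back into the mouse genome many times, and these copies (processed pseudogenes) hold long runs of the same letters. A stretch of 60 coding bases is shown, coding bases 200 to 259 counted from the start codon, at chr6:125163201-125163260 on the minus strand of GRCm38 (GENCODE M21 annotation), beside the same stretch in 4 pseudogenes that are measured as genes of their own in the deposited table. Capitals mark bases that differ from Gapdh when the letters are compared place by place, with no gaps allowed.
Gapdh: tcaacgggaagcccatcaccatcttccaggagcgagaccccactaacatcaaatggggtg
Gm7336: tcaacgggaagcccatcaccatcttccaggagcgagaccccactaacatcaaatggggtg
Gm5559: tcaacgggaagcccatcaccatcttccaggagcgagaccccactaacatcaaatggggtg
Gm12070: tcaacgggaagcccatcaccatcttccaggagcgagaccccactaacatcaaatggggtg
3000002C10Rik: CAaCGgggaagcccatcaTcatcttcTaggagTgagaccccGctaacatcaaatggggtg
Gm7336 (chr7:51746647-51747878), Gm5559 and Gm12070 carry the same 60 letters as Gapdh, and 3000002C10Rik differs at 8 of them in this comparison without gaps. The capitals at its start fall where the letters of Gapdh recur shifted along, so 8 overstates the difference. A read that lies wholly within this stretch has the same letters in Gapdh and in the 3 identical copies.

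Gapdh (ENSMUSG00000057666, chr6:125161715-125166467, minus strand, exons of 4133 bases) took very unequal values. Its normalised read counts in saline libraries 1 to 6 were 211, 116, 115, 159, 204 and 2761. In cocaine libraries 1 to 6 they were 4386, 1210, 4203, 3531, 5763 and 124. Saline 6 was thus high among low saline libraries, cocaine 6 was low among high cocaine libraries, and the groups overlapped at both ends. No library lay between 211 and 1210. The values rest on 105 (saline 3) to 6270 (cocaine 5) recovered reads.

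The highest library held 49.98 times the normalised count of the lowest. Saline libraries had a mean of 594 ± 1062 and cocaine libraries one of 3203 ± 2122 (SD, n = 6 per group), and the medians were 182 and 3867. On the log2(value + 1) scale the cocaine minus saline difference was 2.95 ± 0.94 (SE). Leaving out 1 library at a time, it was largest without saline 6 (3.64 ± 0.80) and without cocaine 6 (3.75 ± 0.71), the libraries that stood apart from their groups. Without any other single library it ran from 2.64 ± 0.98 (without cocaine 5) to 3.09 ± 1.01 (without cocaine 2). In the libraries tagged day 0 the values ran from 115 to 211 (saline) and from 4203 to 5763 (cocaine). In those tagged day 5 they ran from 116 to 2761 (saline) and from 124 to 3531 (cocaine). Each tag leaves few libraries per group and Gapdh was chosen on its spread, so these ranges are a description only. With the time tag as a covariate the difference was 2.95 ± 0.95. The authors' deposited table gives Gapdh a log2 fold change of 2.43. In bulk tissue, fewer cells of a type and less RNA per cell cannot be told apart.

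Gapdh had an SD of 2.40 over the 12 libraries on the log2(value + 1) scale, against a median SD of 0.22 among the 13016 genes tested. Only 3 of those genes had a larger SD. Among the 6695 tested genes with a mean of at least 500 normalised reads, only Ttr, the transthyretin made by choroid plexus, had one (3.67), and Ttr owed it to saline 5, where it stood at 11208 against 13.2 or less in each of the other libraries. Gapdh was at 204 in saline 5, within the range of the other low saline libraries.

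The other 9 enzymes gave each library a common yardstick. Their geometric mean FPKM ran from 213 (saline 4) to 274 (cocaine 1), a ratio of 1.29 between the highest and lowest library. Gapdh FPKM ran from 1.52 (saline 3) to 80.6 (cocaine 5). As a percent of the geometric mean of the other 9, Gapdh stood at 1.31, 0.652, 0.673, 0.994, 1.21 and 15.5 in saline libraries 1 to 6. In cocaine libraries 1 to 6 it stood at 22.1, 7.19, 24.6, 21.2, 30.0 and 0.723. Gapdh therefore lay below the mean level of its pathway neighbours in each of the 12 libraries, at less than 1 percent of it in saline 2, saline 3, saline 4 and cocaine 6. These percents depend on the exon length used, 4133 bases for Gapdh against 999 coding bases. They also depend on how reads that match its pseudogenes were counted, which is not given. The gap to the other 9 varied by 5.51 log2 units between the lowest and the highest library.

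**Figure D1:**
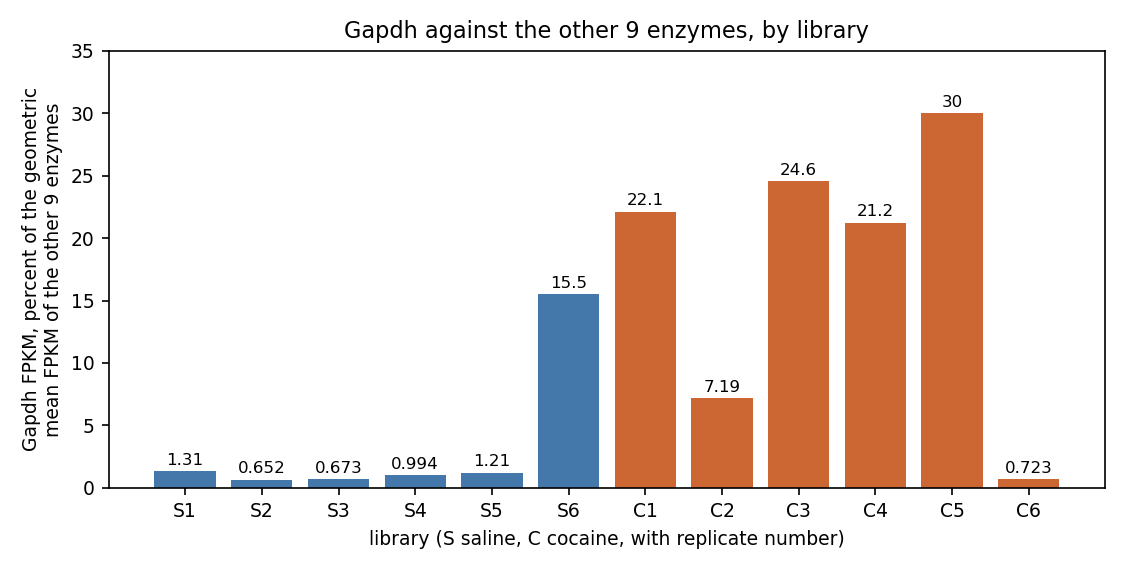
Bars give Gapdh FPKM as a percent of the geometric mean FPKM of the other 9 enzymes, 1 bar per library, with saline in blue and cocaine in orange. Saline 6 (15.5) stands with the cocaine libraries in height, and cocaine 6 (0.723) with the remaining saline libraries.

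As a share of all recovered reads, Gapdh took 0.00063 to 0.0333 percent of a library, and the other 9 enzymes together took 0.729 to 0.967 percent. Ordered by mean FPKM over the 12 libraries, which is a level per length, Aldoa led at 780 ± 130 (SD, n = 12). Pkm (278 ± 31.5) and Ldhb (276 ± 37.2) came next and lay within each other's spread, and Tpi1 (242 ± 19.8) lay within 1 SD of Ldhb but not of Pkm. Eno2 (205 ± 13.4), Eno1 (193 ± 19.4), Aldoc (182 ± 19.9) and Pgk1 (179 ± 14.3) formed a further run in which each gene lay within 1 SD of the next. Ldha stood at 139 ± 13.5. Gapdh was last at 26.4 ± 29.3, with an SD larger than its mean.

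**Figure D2:**
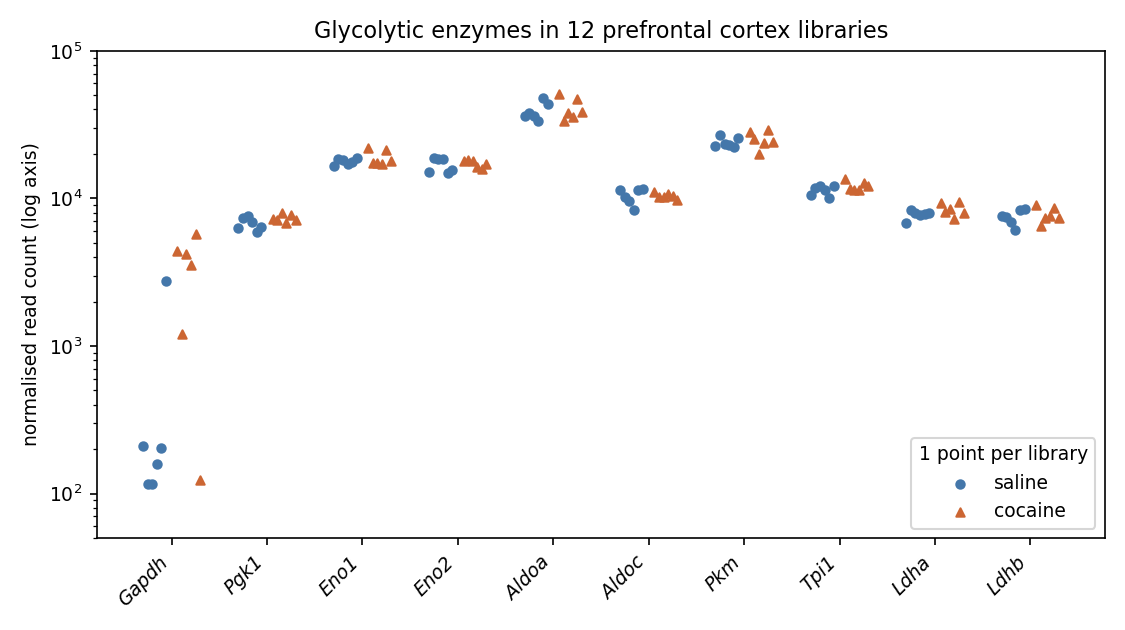
Normalised read counts of the 10 enzymes on a log axis, 1 point per library, saline as blue circles and cocaine as orange triangles. Gapdh covers 115 to 5763, and each other enzyme covers a narrow band, the widest being Aldoa from 33549 to 50701.

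Upstream of Gapdh in the pathway stand the aldolases and triose phosphate isomerase. Aldoa (ENSMUSG00000030695, chr7:126795234-126800751, minus strand), the aldolase of muscle and most other tissues, had 35909, 37820, 36402, 33633, 48105 and 43885 normalised reads in saline libraries 1 to 6 and 50701, 33549, 37723, 35504, 47015 and 38279 in cocaine libraries 1 to 6. Saline 5, cocaine 1 and cocaine 5 were its high libraries, and the groups overlapped across nearly their whole range. Its difference was 0.04 ± 0.13 (log2, SE). The second Aldoa row (ENSMUSG00000114515, chr7:126800790-126809108, 799 bases) stood at only 22.0 ± 6.62 and 21.3 ± 5.82 normalised reads (SD, n = 6 each) and differed by -0.05 ± 0.24. Aldoc (chr11:78322968-78327781, plus strand), the aldolase known from astrocytes and Purkinje cells, had 10426 ± 1300 in saline and 10415 ± 417 in cocaine libraries, with a difference of 0.01 ± 0.09; its lowest value was 8294 in saline 4. Tpi1 (chr6:124810586-124814296, minus strand), triose phosphate isomerase, lies on the same chromosome as Gapdh and had 11318 ± 855 and 12143 ± 882, with a difference of 0.10 ± 0.08.

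Downstream of Gapdh, Pgk1 (chrX:106187100-106203699, plus strand) makes the first ATP of the payoff phase. It had 6268, 7336, 7623, 6970, 5929 and 6420 normalised reads in saline libraries 1 to 6 and 7225, 7181, 8000, 6853, 7757 and 7156 in cocaine libraries 1 to 6. The 3 lowest Pgk1 libraries were saline 5, saline 1 and saline 6, but saline 2, saline 3 and saline 4 lay within the cocaine range. Its difference of 0.13 ± 0.08 was the largest of the 9 (limma adjusted p = 1.00).

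The enolases make phosphoenolpyruvate. Eno1 (chr4:150236721-150248879, plus strand), the widely expressed form, had 17751 ± 848 and 18780 ± 2189 normalised reads (difference 0.07 ± 0.09). Eno2 (chr6:124760053-124769673, minus strand), the neuronal form, had 16843 ± 1896 and 17201 ± 959 (0.04 ± 0.09). Pkm (chr9:59656368-59679375, plus strand), the pyruvate kinase of brain and muscle, had 23960 ± 1924 and 25047 ± 3300 (0.06 ± 0.10). All 3 overlapped between groups, with differences no larger than their errors.

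Lactate dehydrogenase closes the series. Ldha (chr7:46841475-46855627, plus strand), the subunit of muscle-type enzyme, had 7778 ± 508 in saline and 8431 ± 844 in cocaine libraries, with a difference of 0.11 ± 0.08. Ldhb (chr6:142490249-142507957, minus strand), the heart-type subunit that is abundant in neurons, had 7493 ± 867 and 7753 ± 936, with a difference of 0.05 ± 0.10. For both genes the highest libraries were cocaine 1 and cocaine 5, and the lowest was a saline library (saline 1 at 6849 for Ldha, saline 4 at 6140 for Ldhb).

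The balance between paired isozymes was also compared per length. As a ratio of FPKM, Eno2 over Eno1 was 1.09 ± 0.118 for saline and 1.06 ± 0.133 for cocaine (SD over 6 libraries). Aldoc over Aldoa was 0.238 ± 0.025 and 0.234 ± 0.034, and Ldhb over Ldha was 2.04 ± 0.268 and 1.94 ± 0.176. The size of such a ratio depends on the gene lengths used, which were 3310 bases for Ldha and 1570 for Ldhb. In normalised reads Ldhb was the lower of the pair, at 7493 against 7778 in saline and 7753 against 8431 in cocaine libraries. In each of these 3 pairs the group means lay closer together than 1 SD.

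None of the 11 rows passed limma's test at an adjusted p of 0.05 (Benjamini-Hochberg over 13016 genes), and none of the 13016 genes tested did (0 percent). At an unadjusted p under 0.05 stood 1 of the 11 rows, Gapdh, against 1.14 percent (149) of all genes tested; since Gapdh was chosen on these values, nothing is read from that count. No member had groups without overlap, against 0.0768 percent (10) of all genes tested. The cocaine mean was higher on the log2 scale in 10 of 11 rows, against 53.7 percent of all genes tested, and the median difference was 0.06 against 0.01. Gapdh, chosen on these values, is 1 of the 10, and Aldoa, Aldoc and Ldhb changed sign in some alternative fits. The enzymes also shifted together in some libraries, so the rows are not independent and no common shift with treatment is read from this count. edgeR's quasi-likelihood test on the recovered reads called 0 genes (253 at an unadjusted p under 0.05), and DESeq2 called 3 (428), none of them a member.

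**Figure D3:**
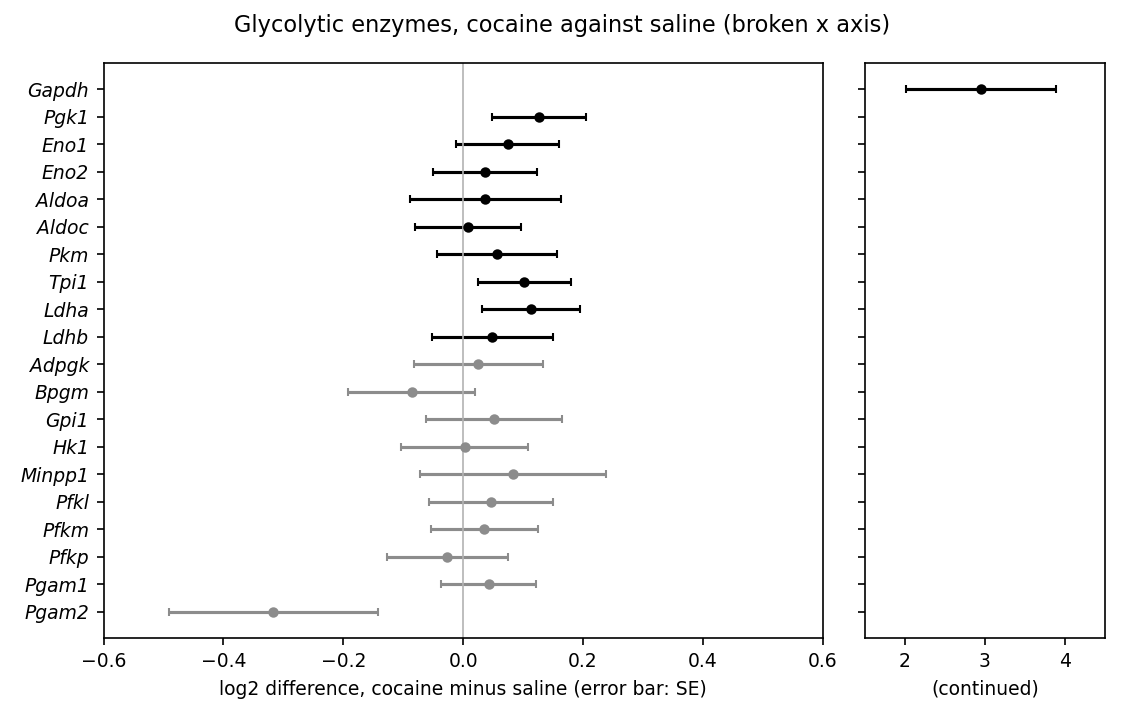
Log2 differences, cocaine minus saline, with the SE of the limma fit as error bars, for the 10 enzymes (black) and the other tested glycolytic enzymes (grey); the x axis is broken to hold Gapdh. Gapdh stands at 2.95 ± 0.94, and the other points lie between -0.32 (Pgam2) and 0.13 (Pgk1).

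The other 9 enzymes showed small shifts in common from library to library. In cocaine 1, 9 of 9 stood above their own mean over the 12 libraries, by 0.19 on average (log2), and in cocaine 5, 8 of 9 did, by 0.15. In saline 1 and in saline 4 only 1 of 9 did, with a mean of -0.11 in each. Single deviations ran from -0.32 (Aldoc in saline 4) to 0.36 (Aldoa in cocaine 1). Gapdh was high in cocaine 1 and cocaine 5 as well, but in saline 6, where Gapdh stood 1.97 above its own log2 mean, the mean deviation of the other 9 was 0.04. In cocaine 6 the deviation of Gapdh was -2.50 and that of the other 9 was -0.02.

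**Figure D4:**
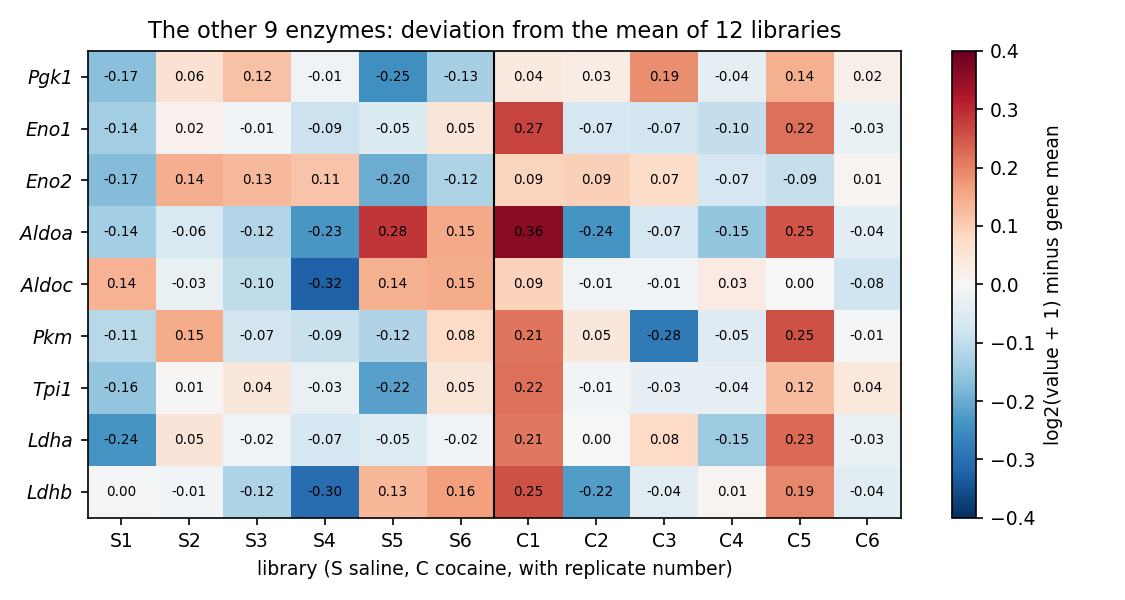
Heat map of the other 9 enzymes: each cell is a library's log2(value + 1) minus the gene's mean over the 12 libraries, red above and blue below, with the black line between saline and cocaine. Cocaine 1 and cocaine 5 are mostly red, and no cell leaves the range from -0.32 to 0.36.

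Pearson's r with Gapdh over the 12 libraries ran from -0.16 (Eno2) to 0.50 (Ldhb) among the other enzymes. Because the Gapdh values fall in 2 separate ranges, such an r mostly contrasts those ranges and is given as a description. The 5 genes with the most similar pattern were Akr1a1, an aldehyde reductase (r = 0.88, Spearman's rho 0.83), Cacfd1 (r = 0.84), the mitochondrial ribosomal protein gene Mrps12 (0.83), the transcription factor subunit gene Taf11 (0.83) and the ribosomal protein gene Rps10 (0.82). The 5 with the most opposite pattern were Psd2 (-0.86), Sbf2 (-0.85), the phospholipase gene Ddhd1 (-0.83), the potassium channel gene Kcnh6 (-0.83) and the coat protein gene Sec31a (-0.83). All 10 were picked as the extremes of a search through the 13016 genes tested (members left out) over only 12 libraries. High values of r arise in such a search by chance as well, and a link with Gapdh was not tested. None of these 10 came near the size of the Gapdh spread. Akr1a1 ran from 5258 to 6320 normalised reads, and the ratio of the highest to the lowest library lay between 1.20 and 1.67 across the 10.

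No further enzyme of the pathway passed the test. Of the 11 other glycolytic enzymes on the list, 10 were tested, with 0 called, 7 higher and 3 lower in cocaine libraries and a median difference of 0.03. Pgam2, the muscle phosphoglycerate mutase, was the one with the smallest p, at 95.2 ± 22.4 and 75.6 ± 13.0 normalised reads (difference -0.32 ± 0.17). Bpgm, which makes 2,3-bisphosphoglycerate, differed by -0.09 ± 0.11. Among other isozymes of the 10 enzymes, 4 of the 9 listed were tested: Ldhd, Eno1b, Eno3 and Eno4, 3 of them higher, with 0 called.

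Regulators of glycolysis (14 tested, 9 higher, 5 lower, median 0.01) included Egln2, a prolyl hydroxylase of hypoxia-inducible factors, at 0.11 ± 0.10, and Tigar, a fructose-bisphosphatase, at 0.13 ± 0.13. Glucose and lactate carriers (6 tested, 3 higher) included the monocarboxylate carriers Slc16a1 at 0.06 ± 0.09 and Slc16a7 at 0.06 ± 0.13. Genes for the entry of pyruvate into mitochondria were higher in 12 of 14 (median 0.09), among them the pyruvate dehydrogenase genes Pdhb at 0.11 ± 0.07 and Pdhx at 0.10 ± 0.07. Tricarboxylic acid cycle genes were higher in 13 of 15 (median 0.04), with Sdhd, a subunit of succinate dehydrogenase, at 0.13 ± 0.08 and Sucla2, a subunit of succinyl-CoA synthetase, at 0.10 ± 0.10. Pentose phosphate and glycogen genes were higher in 5 of 14 (median -0.01; Rpia, ribose-5-phosphate isomerase, at 0.27 ± 0.17, and Rpe, ribulose-phosphate epimerase, at 0.07 ± 0.10). Genes of the shuttles that carry the electrons of NADH into mitochondria were higher in 7 of 8 (median 0.06), the exception being Gpd1, glycerol-3-phosphate dehydrogenase, at -0.12 ± 0.09. In these 6 lists 0 genes were called.

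Gapdh was set beside 15 other genes in common use as references, among them Actb, Ppia, Hprt, Tbp and Polr2a. The ratio of the highest to the lowest library was 1.31 (Eef1a1, an elongation factor) to 2.26 (B2m, of the MHC class I complex) across the 15, against 49.98 for Gapdh and 1.27 (Eno2) to 1.51 (Aldoa) for the other 9 enzymes. The reference genes were higher in cocaine libraries in 8 and lower in 7, with 0 called; B2m differed by -0.25 ± 0.18 and Gusb, a lysosomal glucuronidase, by 0.14 ± 0.11.

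The sharing of sequence shown above was counted over whole coding regions. Each was cut into all its overlapping windows of 50 bases, and a window was counted as shared if its exact letters also lay in an annotated transcript of another gene (GENCODE M21). For Gapdh 950 of 950 windows (100 percent) were shared, with 221 other genes, 212 of them pseudogenes. A gene was counted from 1 shared window on: only 3 of the 221 hold every Gapdh window, and 10 hold 900 or more. With windows of 100 bases it was again 100 percent, with 85 other genes. Pgk1 was also at 100 percent (5 other genes, of which the pseudogene Gm5537 holds all 1202 windows). Eno1 was at 83.3, Pkm at 52.9, Ldhb at 35.6, Ldha at 31.05, Aldoa at 19.5 and Tpi1 at 13.7 percent, and Eno2 and Aldoc shared none. Of the reference genes, Ppia was at 100 percent (38 other genes) and Rpl13a at 97.5 percent. The highest library held 1.35 times the lowest for Pgk1, 2.02 times for Ppia, 1.89 times for Rpl13a and 49.98 times for Gapdh. These genes differ in how many others they share windows with, and whether that number goes with the spread was not tested.

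**Figure D5:**
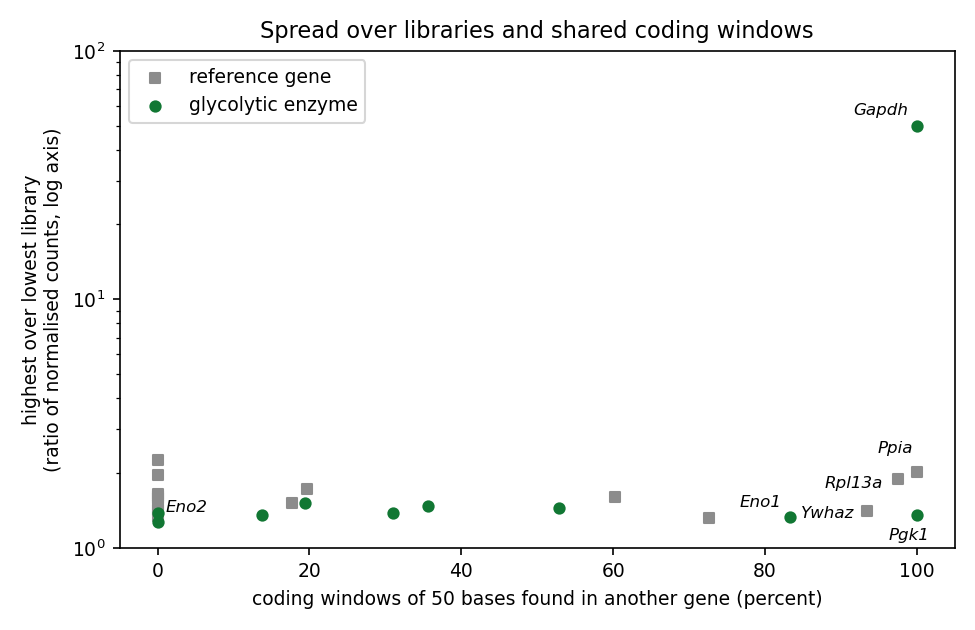
Each point is a gene, glycolytic enzymes in green and reference genes in grey: the x axis gives the percent of 50-base coding windows found in another gene, and the y axis, on a log scale, the ratio of the highest to the lowest library in normalised reads. At 100 percent lie Gapdh (ratio 49.98, windows shared with 221 other genes), Ppia (2.02, 38 genes) and Pgk1 (1.35, 5 genes). These counts include genes that share only 1 or a few windows, and 3 of the 221 hold every Gapdh window.

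Of the 212 pseudogenes, 124 are measured in the deposited table, and their summed normalised counts were 704, 865, 671, 725, 835 and 894 in saline libraries 1 to 6. In cocaine libraries 1 to 6 the sums were 873, 638, 1023, 807, 893 and 702. The sums thus covered 638 to 1023 normalised reads where Gapdh covered 115 to 5763. Such sums were not equally steady for every gene: the 15 measured pseudogenes that share windows with Ppia summed to between 903 (saline 2) and 6190 (saline 5). The 4 highest sums lay in cocaine 3, saline 6, cocaine 5 and cocaine 1, each a library with a high Gapdh value. Saline 2 (865) and saline 5 (835), both low in Gapdh, came next, above cocaine 4 (807), where Gapdh was high. The lowest sum lay in cocaine 2, where Gapdh stood at 1210. Gm7336, which holds all 950 windows, ran from 103 to 306, Gm5559 from 79.6 to 157, 3000002C10Rik from 59.0 to 124 and Gm12070 from 51.4 to 82.5. In the saline libraries other than saline 6, and in cocaine 6, the pseudogene sum exceeded Gapdh itself. How the authors counted reads that match several places is not given in the sources used here, and the part of this sharing in the Gapdh values was not tested.

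Overlap with neighbouring genes was small for Gapdh, Tpi1 and Aldoa, and larger for Pkm. Gapdh shares 68 of its 4133 exon bases with Iffo1 on the opposite strand, and Iffo1 ran only from 873 to 1177 normalised reads. Pkm shares 767 of 5001 exon bases with Gm49759 on the same strand (88.6 to 204 normalised reads), Tpi1 34 of 2753 with Spsb2 and Aldoa 25 of 2911 with Fam57b, both on the opposite strand. The strand setting of the authors' counting is not given in the sources used here.

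Cell type markers were set beside the Gapdh values, with 0 called in every list. Oligodendrocyte markers were lower in cocaine libraries in 9 of 9 (median -0.19), but their sum ran from 32578 to 233108 in saline and from 48926 to 191605 in cocaine libraries, so the groups overlapped widely; Aspa, an aspartoacylase, differed by -0.26 ± 0.41. Neuron markers were higher in 6 of 9 (Stmn2 at 0.12 ± 0.09, Gad2 at -0.14 ± 0.15) and astrocyte markers in 3 of 9 (Aldh1l1 at 0.10 ± 0.12, Aqp4 at -0.06 ± 0.13). Microglia markers were higher in 1 of 7 (Cx3cr1, the fractalkine receptor, differed by -0.22 ± 0.10), endothelial markers in 2 of 7 and choroid plexus and ependymal markers in 0 of 3. Of the 7 choroid plexus and ependymal genes listed only these 3 were tested. Ttr, 1 of them, reached the mean FPKM of 1 through saline 5 (11208 normalised reads, against 13.2 or less in each other library), so nothing is read from this count. Among red blood cell genes 4 of 4 were higher (median 0.50), with sums of 787 to 2717 in saline and 1317 to 2531 in cocaine libraries; Hbb-bs, a beta globin, had 615 ± 236 and 835 ± 241 (SD). No marker in these lists was at 0 in all libraries. The part of cell makeup in the Gapdh values was not tested.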

How the data were processed

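RNA of 12 prefrontal cortex libraries was sequenced; groups were taken from the treatment labels. HISAT2 2.0.5 and the build hg38 are named in the submitters' processing notes; the gene IDs are mouse, and all 11 member rows had the same coordinates in GENCODE M21 (GRCm38). The authors deposited 1 table whose values per library are a signal, made from read counts by dividing each library by a size factor of its own. Within 0.01 read, 100 percent of values came out as whole reads. They are not divided by gene length, although the name of the table says FPKM, and FPKM was computed here from value, gene length and column sum. The authors' deposited columns of log2 fold changes and p-values entered no test, and per the file headers a further column of another kind gives gene length.

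Genes were kept at a mean FPKM of 1 or more (13016), and tested with limma 3.58.1 (R 4.3.3; variance trend, no covariates) on log2(value + 1), two-sided, with Benjamini-Hochberg adjustment and a threshold of 0.05; the script was first tested on simulated data. Differences on this scale understate the change of low genes. edgeR 4.0.16 and DESeq2 1.42.0 were run on the recovered counts behind the deposited values as alternatives. A count of 0 allows up to 3 reads, counting error only. The main fit did not treat libraries of the same number as pairs. The members and gene lists were chosen with earlier results of these data known. Named were all members, from each list the 2 genes with the smallest p (in lists of at most 8 tested genes, any of them; 1 such gene is not reported here) and the 5 genes most like and 5 most unlike Gapdh; further reference genes (Actb, Ppia, Hprt, Tbp, Polr2a, Rpl13a, Eef1a1), the pseudogenes and the genes overlapping members were named outside this rule, after their values were seen.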

Additional observations from a re-analysis of the deposited data

Results flagged for a closer look

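Gapdh in saline 6 stood at 2761 normalised reads, and the next saline library at 211. The gap took up 0.964 of the range of the 6 saline libraries, above the 95% critical value of Dixon's test. Across 22 groups checked (11 rows in each treatment group) this was the 1 such library; chance alone gives about 1 in 20 groups. Gapdh was chosen because it was known to spread in these libraries, and 1 flag in 22 is no more than chance gives, so this only describes the library. The low Gapdh value of cocaine 6 (124) was not far enough from cocaine 2 (1210) to pass the same test.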

How the results depend on the processing

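In 263 alternative fits of the 11 rows over 24 settings, 0 passed the threshold. The count of genes called stayed at 0 except with DESeq2 (3). The Gapdh difference kept its direction in all 24, from 2.40 to 3.75, and the gap of Gapdh to the other 9 enzymes differed between groups by 2.60 to 3.67 (log2, 14 settings). Gapdh was chosen on these same values and the settings reuse them, so the kept direction is a description and no support for a difference. Of the 11 rows, 4 changed sign in some of the alternatives. Leaving out 1 library at a time, Aldoa ran from -0.031 (without cocaine 1) to 0.098, and was also below 0 without saline 4 or cocaine 5. Aldoc ran from -0.056 (without saline 4) to 0.038, and was also below 0 without saline 3 or cocaine 1, and at -0.013 with edgeR without a count filter and -0.0015 with DESeq2. Ldhb ran from -0.0069 (without saline 4) to 0.099. The second Aldoa row ran from -0.12 to 0.085 (without saline 6), and was also above 0 without cocaine 3 or cocaine 4. The differences of other rows near 0 moved by over 1.5 times without changing sign: Eno2 ran from 0.00036 (without saline 5) to 0.069 (without saline 2), Pkm from 0.012 (without cocaine 5) to 0.12 (without cocaine 3) and Eno1 from 0.029 (without cocaine 1) to 0.10 (without cocaine 4). The cause was not tested. With the replicate number as a block, 0 genes were called and Gapdh differed by 2.95 ± 1.09. The deviations of same-numbered libraries correlated between -0.40 and 0.43, with no common sign. Such values cannot tell whether the numbers pair the libraries. In saline 1 to 5 and cocaine 6, Gapdh rests on 105 to 215 reads, which limits its precision there.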
